A study of Drosophila melanogaster with 6 samples.

Results

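The antisense RNA genes described here are the 90 genes of the matrix whose symbol begins with asRNA: and that had a nonzero value in at least 500 of the 43027 nuclei. They are 90 of 399 asRNA genes and of 12925 genes in all. The number of nuclei with a value, over all clusters and conditions, chose them, so that count is a description and supports nothing. Among the members it ran from 507 to 10744 nuclei, with a median of 886.5. The members nearest to the limit were CR31912 with 515 nuclei, CR44116 with 513 and CR43916 with 507, and the nearest genes left out were CR45834 with 498, CR42547 with 497 and CR43903 with 494. A name such as CR44992 stands for the symbol asRNA:CR44992.

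The data are single-nucleus RNA sequencing (snRNA-seq) of female Drosophila melanogaster bodies without heads, with droplet libraries that tag the 3′ end of transcripts. The study asked how tissues respond to starvation and exchange signals, above all oenocytes, the hepatocyte-like cells of the abdominal wall, and the fat body (FB), the main fat store. It holds 3 conditions with 2 libraries each: fed, starvation day 2 and starvation day 5. The groups are named by their titles, although the library names and the sample codes of the annotation carry 5 for the group titled day 2 and 7 for that titled day 5, so the length of starvation is not certain. The starvation medium was a synthetic diet with its calories left out, apart from those of acetic acid. All groups, the fed one included, carried the same genotype, PromE-gal4, Tub-gal80ts, an oenocyte Gal4 driver with a temperature-sensitive Gal4 repressor that is expressed throughout the body. They were reared at 18 °C and held at 29 °C, for 5 days by one label and 7 days by another. Each library pooled flies, and the sources do not say whether the libraries of a condition came from separate groups of flies, so the p-values measure only the spread between these libraries, which may be technical.

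Natural antisense transcripts are RNAs copied from the DNA strand opposite to another gene, so that part of their sequence is complementary to that gene's RNA. Some are known to act on the gene they overlap, through its transcription, splicing or RNA stability, and for most of them in the fly no function has been worked out. A poly(A) library that starts from the 3′ end detects them when they are polyadenylated or hold a run of A, and only counting that uses the strand of the read can tell them from the gene on the other strand. Whether the counting used strand and whether it included introns are not given in the sources used here, so reads of a member and of its overlapping gene cannot be told apart with certainty. The values of both are therefore given side by side for many of the responses, though not for all. Where the partner's values are left out, shared reads cannot be judged.

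By the Ensembl annotation of the BDGP6.54 assembly, all 90 members share exonic bases with a protein-coding gene on the opposite strand, called the partner here, and 9 also overlap a gene on their own strand. The partner was in the matrix for 88 members. The exceptions were CR45126, opposite Taf3, and CR44019, opposite CtsF. The members spanned 296 to 94235 bases, with a median of 1627 and a median of 1234 exonic bases. The X chromosome held 23 of them, 3R 18, 2R 17, 2L 15 and 3L 12, and chromosome 4 held 5.

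The fed libraries held 10059 and 10091 nuclei, those of day 2 7591 and 7492 and those of day 5 3776 and 4018, with a median of 1074 to 1329 unique molecules (UMIs, tags that mark single captured RNAs) per nucleus. Each library shared 33 to 88 cell barcodes with others. The authors' annotation has 26 clusters. In it, oenocyte, fat body and hemocyte markers were highest in the clusters of those names, as were 7 of 8 neuron markers (brp was slightly higher in the multidendritic neuron cluster) and, of 5 glia markers, repo and Eaat1 but not nrv2, Gs2 and moody, whereas btl, trh and Gasp, which mark trachea, peaked outside the cluster named so, and the digestive enzyme genes Amy-p, betaTry and alphaTry, with nub, peaked in cluster 12, named as Malpighian tubule and pericardial cells. Of the germline markers, vas and nos were highest in ovary cell cluster 7, osk, orb and otu in germline cluster 6. Only bam was highest in cluster 11, named female germline, and bru1 and bgcn peaked in indirect flight muscle and follicle cell cluster 5. The flight muscle markers fln, TpnC4 and sals peaked in their cluster, Act88F in germline cluster 21 and Strn-Mlck in visceral muscle of the crop. Clusters 10 and 12 are called by number here, and the other names, that of cluster 11 included, are the authors'. Eggshell transcripts were found outside the follicle cells. Levels are given as CPM, a gene's UMIs per 1000000 UMIs of the summed nuclei. The summed level of 8 eggshell genes over all nuclei was 5348 and 4846 CPM in the fed libraries, 115 and 163 at day 2 and 45.4 and 44.9 at day 5, and in indirect flight muscle, which makes no eggshell, it was 7142 and 6625, then 79.3 and 95.4, then 18.9 and 22.2. None of the 90 members is an eggshell gene, and the part of free RNA in their values was not tested.

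The members were rare transcripts. Together they held 183466 of 92035559 UMIs, or 0.199%, and the other asRNA genes of the matrix held 52839. A member had 538 to 19905 UMIs with a median of 1179, and the 10 with most UMIs held 44.0% of the members' total. The summed level of the members was nearly the same in every library, at 2003 and 1973 CPM in the fed libraries, 2021 and 1987 at day 2 and 1956 and 2015 at day 5. The conditions overlapped in this sum.

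The sum differed more between clusters than between conditions. It was highest in oenocytes, at 3999 CPM, followed by the female germline cluster 11 at 3147, follicle cell cluster 5 at 2729 and cluster 12 at 2685. It was lowest in the ovary cell cluster 7, at 718, and the germline cluster 6, at 790. One gene, CR44035, gave 1914 of the 3999 CPM in oenocytes. The clusters were made from these genes among all others, so these levels and the cluster profiles that follow are a description with no test.

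**Figure D1:**
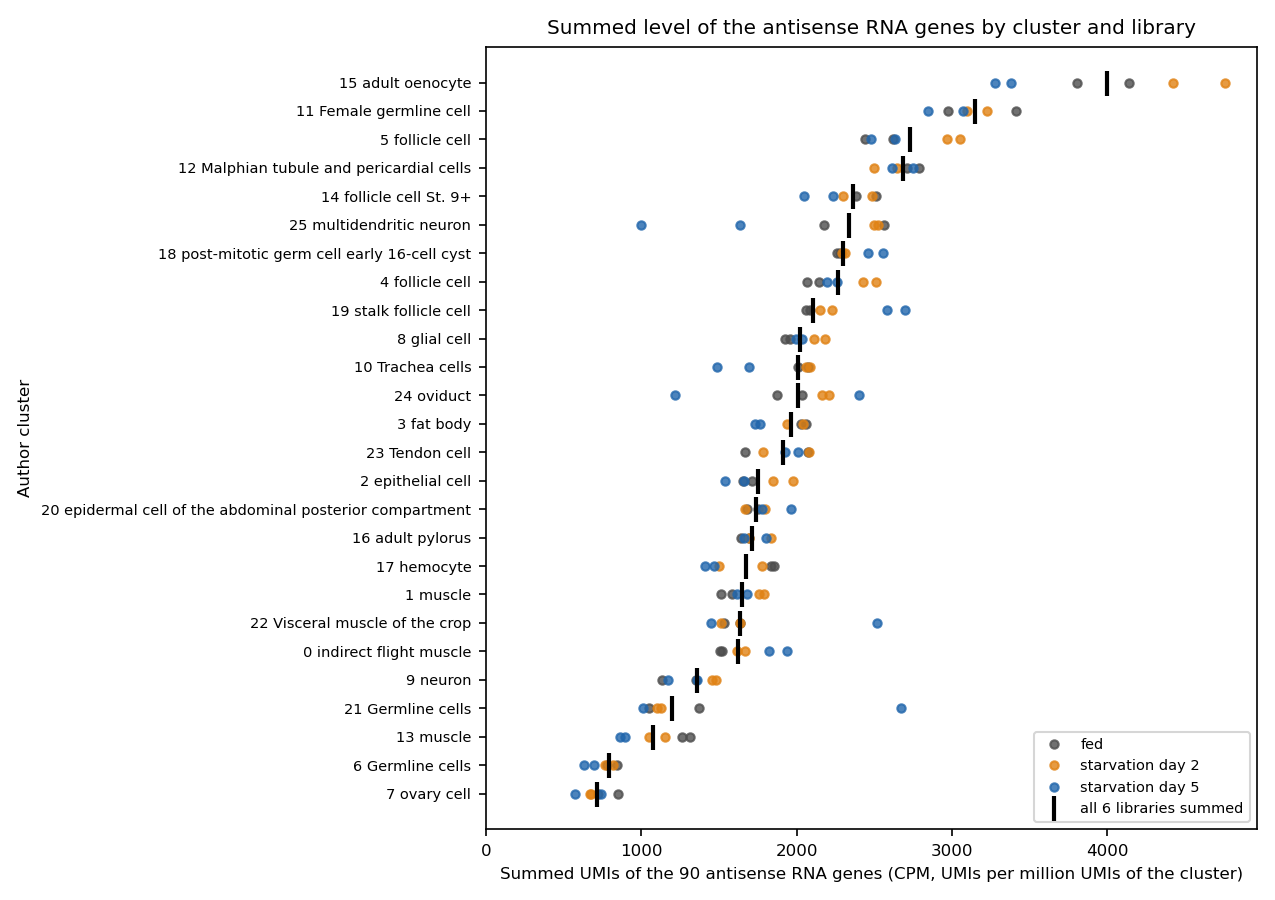
Summed level of the 90 antisense RNA genes in CPM by cluster, with 1 dot per library coloured by condition and a black bar for all libraries together. Oenocytes stand highest at 3999, and the clusters named ovary cell (7) and germline (6) lowest at 718 and 790.

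CR44029, at chr4:879374-884752 on the plus strand and opposite unc-13, which primes synaptic vesicles for release, had the most UMIs of all, 19905 in 10744 nuclei, and was broad, with 469 CPM in cluster 10 (named trachea), 403 in follicle cell cluster 5 and a median of 205 over clusters. CR45185, at chrX:10044909-10048156 on the minus strand and opposite Cht6, a chitinase, had 9538 UMIs and was highest in follicle cell cluster 5, at 914. These members were highest in different cell types.

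CR45139, opposite the magnesium transporter gene uex, had 6619 UMIs and was highest in the multidendritic neuron cluster, at 192 CPM on 27 UMIs, followed by oenocytes at 180. CR44981, opposite sky, a Rab GTPase-activating protein of synaptic vesicle traffic, had 5939 UMIs and was highest in visceral muscle of the crop, at 161 CPM on 65 UMIs, followed by hemocytes at 155. CR42860, at chr3L:2088166-2089626 on the plus strand and opposite sls, which encodes the titin-like proteins of the sarcomere, had 5796 UMIs and was highest in the oviduct cluster (530) and muscle cluster 1 (443). CR45889, at chr3L:16042395-16042968 on the plus strand and opposite Diap1, the inhibitor of apoptosis, had 4594 UMIs and was nearly level between cluster 10 (105) and oenocytes (104). Among the 10 members with most UMIs were also CR44035, CR43906, opposite CG13377 and highest in cluster 10 at 355, and CR43460, opposite the ubiquitin ligase adaptor rdx and highest in stalk follicle cells at 236.

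Cluster specificity was summarised by tau, an index that is 0 for a gene at 1 level in all clusters and 1 for a gene found in a single cluster. The median tau of the members was 0.811, beside 0.798 for the 183 lncRNA: genes and 0.766 for all 8344 genes past the same limit. Tau was over 0.9 for 17 members (18.9%), for 21.3% of the lncRNA: genes and for 15.3% of all genes. It was under 0.7 for 26 members (28.9%) and for 34.9% of all genes. The lowest was 0.473, for CR45822 opposite the insulator protein gene CTCF. The members had a median of 1179 UMIs against 3044.5 over all genes past the limit, and the part of this in their tau was not tested.

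Which clusters held the members' highest level differed from the genes at large. The ovary cell cluster 7 was the highest cluster of 30.0% of all genes past the limit and of 1 member (1.11%), and germline cluster 6 of 12.8% of all genes and of 3 members (3.33%). The fat body was highest for 11 members (12.2%, beside 6.16% of all genes), cluster 12 for 9 (10.0%, beside 6.18%), the female germline cluster 11 for 7 (7.78%, beside 2.85%), the multidendritic neuron cluster for 7 (beside 2.67%) and indirect flight muscle for 6 (6.67%, beside 2.64%). Oenocytes, cluster 10, follicle cells of stage 9 and later, stalk follicle cells and the oviduct cluster were highest for 5 members each. For 13 members the same cluster was highest in all 6 libraries, whereas for 35 it was so in at most 2. The highest level was more than 2 times the next in 21 members and less than 1.2 times in 28, and in 19 members the highest cluster held fewer than 50 UMIs. All 26 clusters had a UMI of 30 members, and the other 60 were at 0 in at least 1 cluster and in at most 6.

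**Figure D2:**
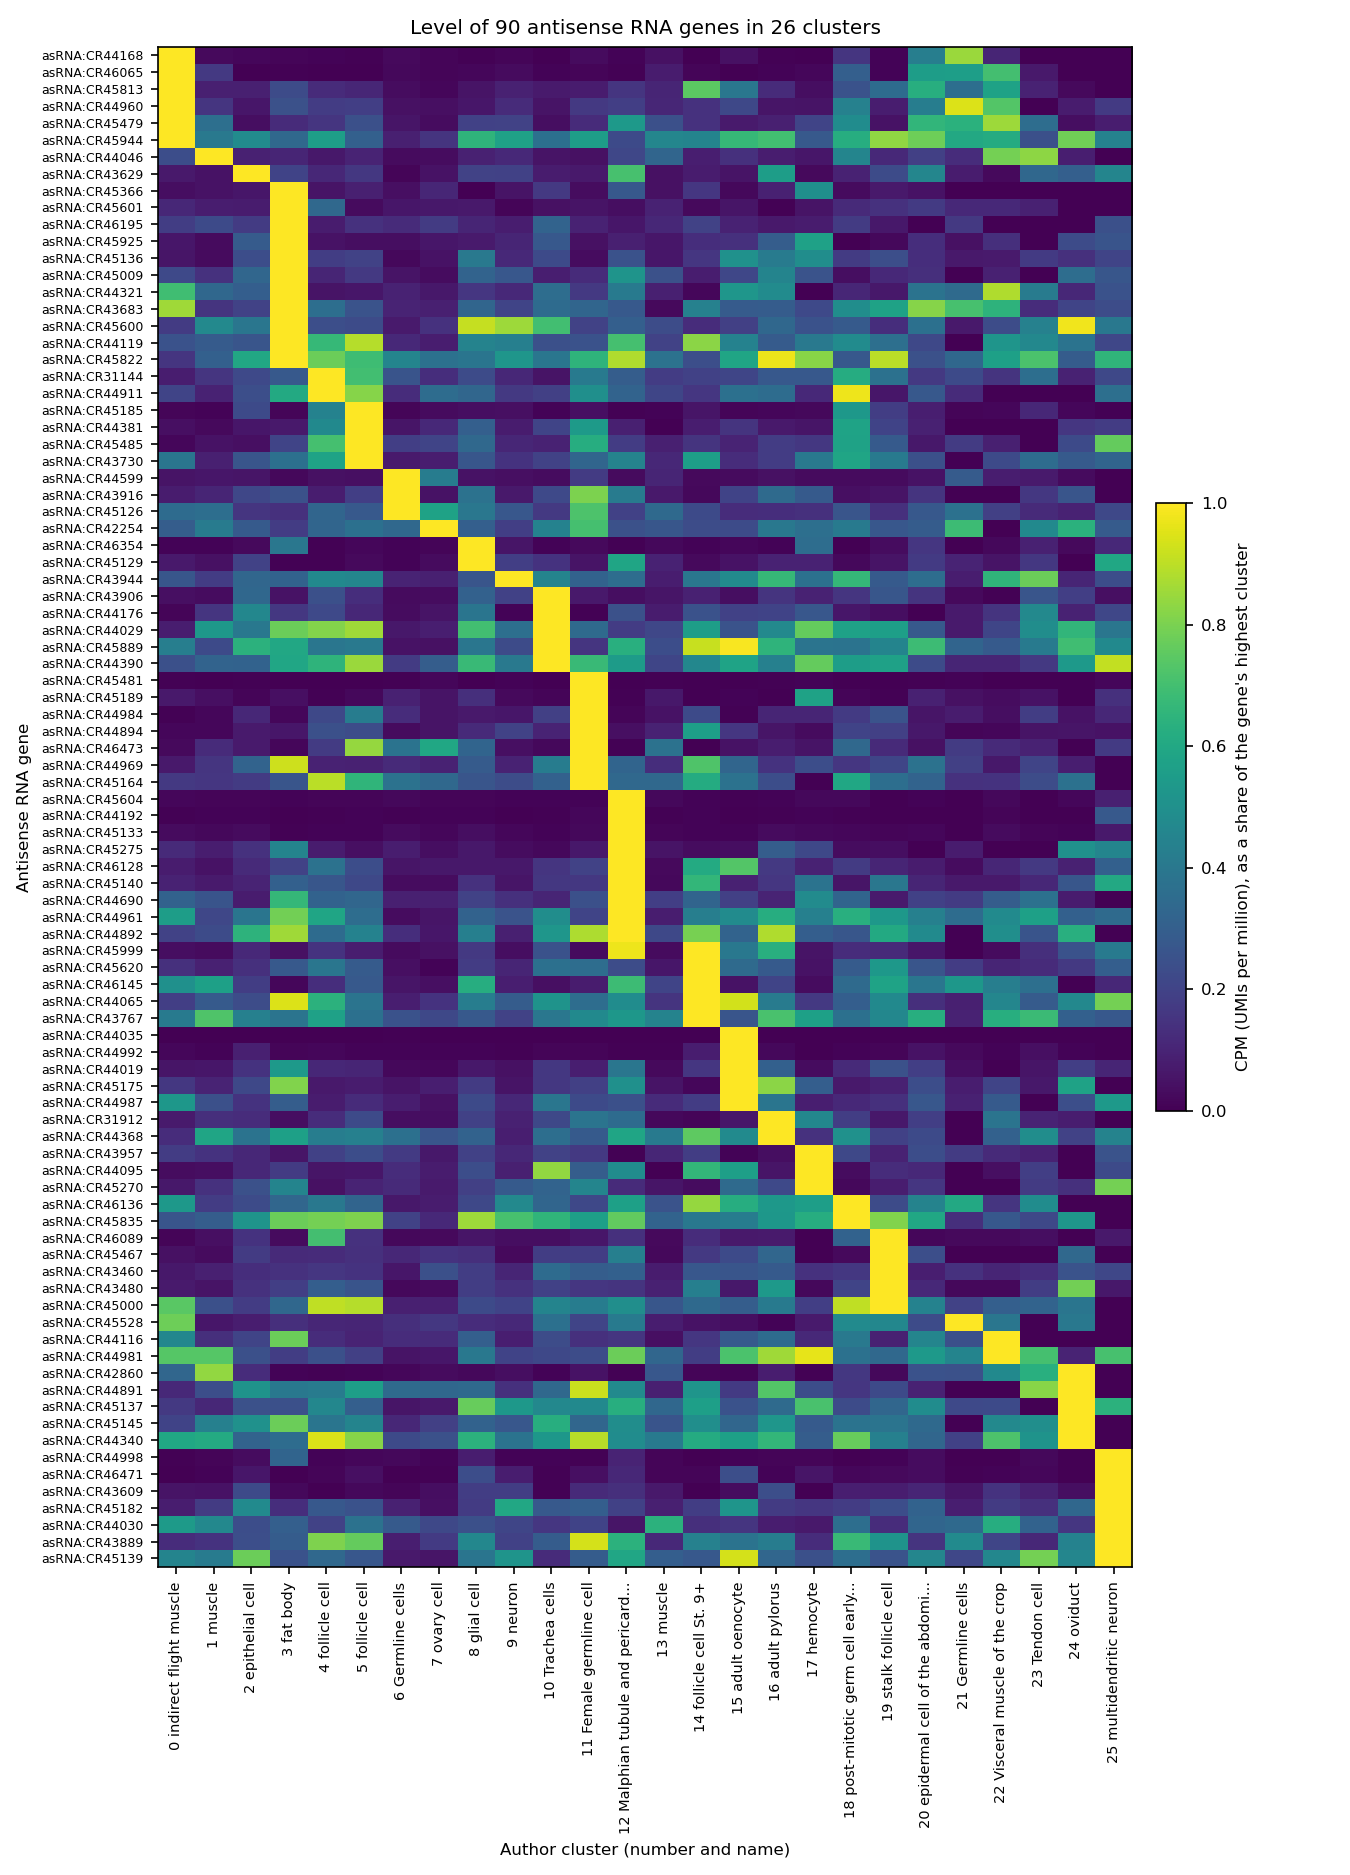
Level of each of the 90 antisense RNA genes (lines) in each of the 26 clusters (columns), as a share from 0 to 1 of the gene's highest cluster level in CPM. Only 21 genes have a highest level over 2 times the next, and most members show several clusters of similar level.

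The members with the highest tau marked few cell types. CR44035, at chr3R:9810020-9813929 on the minus strand and opposite CG8534, of the fatty acid elongase family, had a tau of 0.998, with 1914 CPM in oenocytes and 10.1 in the next cluster. Oenocytes held 93.4% of its UMIs, and elongases are part of the machinery by which these cells make very-long-chain fatty acids and cuticular hydrocarbons. CR44992, at chr2L:8703475-8705450 on the plus strand and opposite Hnf4, a nuclear receptor of lipid metabolism, had a tau of 0.981, with 295 CPM in oenocytes and 25.5 in the next cluster. Oenocytes held 60.0% of its UMIs.

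Of the other members of high tau, several were highest in cluster 11, named female germline, and in cluster 12. CR45481, at chrX:3968933-3972054 on the plus strand and opposite CG6414, had 447 CPM in cluster 11 and 8.41 in the next cluster. In cluster 12 the levels were 324 for CR45604 (tau 0.984, opposite CG2061), 319 for CR45133 (0.980, opposite the potassium channel gene KCNQ) and 203 for CR44192 (0.983, opposite Npc2e, of a sterol-binding family). CR46354, opposite side-IV of the sidestep family, was highest in glia at 125, and CR45189, opposite the transcription factor gene zfh1, in cluster 11 at 156. CR44998 and CR46471 were highest in the multidendritic neuron cluster, but on 24 and 61 UMIs.

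The partner was compared with each member over the 26 clusters by Pearson's r of log2(CPM + 1). Points share libraries and their depth, and r is given with no p. The median r over the 88 members was 0.537, with a range of -0.256 to 0.925. The median r of the members with all ranked genes was -0.039. It was over 0.8 for 16 members, between 0.5 and 0.8 for 30, under 0.5 for 42 and below 0 for 8. For 6 members the partner had the highest r of all 8343 ranked genes, namely CR45189 with zfh1 (0.925), CR43906 with CG13377 (0.923), CR44981 with sky (0.896), CR45813 with Pcyt1 (0.881), CR45129 with Dscam1 (0.873) and CR43460 with rdx (0.814). Of the 80 partners that passed the limit of nuclei themselves, 36 were among the first 100 genes.

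The members were usually the minor RNA of the pair. The median ratio of UMIs of member to partner was 0.151, and 17 members had more UMIs than their partner. CR45481 had 41.7 times the UMIs of CG6414, CR44035 15.7 times those of CG8534 and CR45185 6.30 times those of Cht6. CR45601 was among the members with far fewer UMIs than their partner. It lies at chrX:10054235-10055109 on the minus strand, with 100% of its exonic bases within exons of Yp1. Yp1 encodes a yolk protein made by fat body and follicle cells. The level of CR45601 was 0.012 of that of Yp1 and its r with Yp1 was 0.805. CR42860 shared 74.5% of its exonic bases with sls (r 0.792), CR45813 4.64% with Pcyt1 (r 0.881) and CR44992 9.38% with Hnf4 (r 0.599). The highest cluster was the same for member and partner in 22 pairs. The lowest r belonged to CR43767 with Tango14 (-0.256), CR45999 with CG9855 (-0.232) and CR44368 with CG18324 (-0.225), of which CR43767 and CR44368 were chosen after their values were seen.

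**Figure D3:**
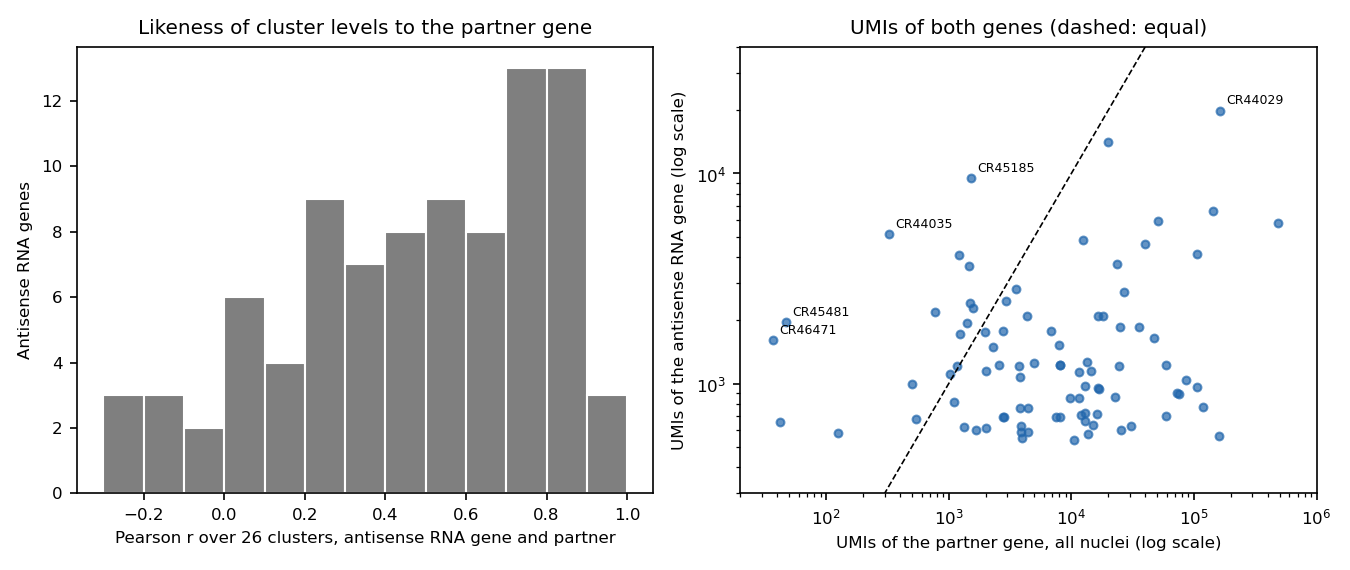
Left, number of antisense RNA genes by Pearson's r with their partner over 26 clusters; right, UMIs of each member against UMIs of its partner on log axes with a dashed line of equality. The median r is 0.537, and 17 of 88 points lie above the line.

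Members that lie close together did not share 1 profile. In 7 pairs the members were within 20 kb of each other. CR44891 and CR44892, both opposite svr and 723 bases apart, had an r of 0.63 over clusters, and CR45479 and CR44690, which overlap each other, 0.57. The other 5 pairs had an r of 0.08 to 0.25. These pairs were chosen by distance alone, after the values were seen.

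Starvation was first compared over all nuclei of a library. The mean deposited value (the natural log of a scaled UMI count, averaged over nuclei) was tested per library with limma, and adjusted p-values are Benjamini-Hochberg values over all genes tested. A mean over all nuclei moves with the share of each cell type as well as with RNA per nucleus, and these cannot be told apart in it. At day 2, 14 of the 90 members were higher and 15 lower than in the fed libraries, where 26.4% of all genes tested were higher and 10.7% lower. At day 5, 13 were higher and 32 lower, beside 13.0% and 47.5% of all genes. Between the starved days, 14 were higher and 36 lower at day 5 than at day 2, beside 10.4% and 54.1% of all genes. Both day 2 and day 5 used the same fed libraries. Of the 29 members called at day 2 and the 45 called at day 5, 19 were called on both days, 13 of them in the same direction. The like count over all genes was not made.

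The direction of these totals rested on the scale. The median log2 fold change of all genes in summed CPM was 0.16 at day 2, -0.13 at day 5 and -0.26 between the starved days, and that of the members was -0.01, -0.04 and -0.04. With summed CPM, 8 members were higher and 15 lower at day 2, 17 higher and 25 lower at day 5 and 16 higher and 18 lower between the starved days. With median-ratio factors, which set the typical gene to no change, the counts were 5 higher and 20 lower, 24 higher and 17 lower, and 31 higher and 14 lower. The majority at day 5 thus changed sides with the scaling. Calls over all genes moved as well. Of them, 71.1%, 21.6% and 16.2% were higher at day 2, at day 5 and between the starved days with the mean deposited value. With summed CPM these shares were 69.8%, 34.6% and 26.6%, and with median-ratio factors 41.6%, 48.2% and 50.9%. Without fed replicate 1, fed replicate 2 or day 2 replicate 1 the count of calls at day 2 fell from 29 to 17, 14 and 14.

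Some of the falls over all nuclei were steep. CR45601 fell from 15.2 and 13.5 CPM in the fed libraries to 6.54 and 7.06 at day 2 and 1.98 and 2.07 at day 5, with a log2 fold change of -2.78 at day 5. CR45366, opposite the nucleoside transporter gene Ent1, stood at 13.3 and 13.0, then 4.67 and 4.44, then 2.64 and 2.07. CR46195, opposite Trf4-1, a noncanonical poly(A) polymerase, stood at 11.3 and 10.7, then 5.98 and 5.84, then 2.64 and 1.68. In each of the 3 genes every starved library was below both fed libraries, and both day 5 libraries were below both day 2 libraries. CR44960, opposite CG33178, was also lower on both days (27.3 and 26.9, then 16.7 and 17.7, then 12.2 and 11.5).

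Other members rose. CR44168, opposite CG34423, had 4.49 and 5.91 CPM when fed, 2.37 and 4.87 at day 2 and 35.4 and 31.4 at day 5, a log2 fold change of 2.69. CR45813, at chr3L:1549448-1549900 on the minus strand and opposite Pcyt1, the rate-limiting enzyme of phosphatidylcholine synthesis, went from 25.7 and 25.4 through 25.3 and 23.3 to 50.4 and 57.0. For both genes the day 2 libraries overlapped the fed ones or lay just below them, and the day 5 libraries stood apart. CR45185 was higher at day 2 only, with 84.2 and 86.1 CPM when fed, 139 and 148 at day 2 (difference 0.170 ± 0.016 (SE), adjusted p = 1.7e-08, limma) and 68.0 and 77.7 at day 5.

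To take out the changing share of cell types, the cluster means were averaged with the same weights in every library over the 19 clusters with at least 20 nuclei in each library. At these fixed shares 10 members were higher and 7 lower at day 2, where 8.59% of all genes were higher and 7.81% lower. At day 5, 10 were higher and 25 lower, beside 11.3% and 32.5% of all genes. With summed CPM the split at day 5 was 12 higher and 19 lower, and with median-ratio factors 15 higher and 16 lower. At day 2 both gave 2 higher and 5 lower. Of all genes called, 34.7% and 49.7% were higher at day 5 under these 2 scalings, and 53.8% and 44.6% at day 2. The median log2 fold change of all genes at day 5 was -0.11 and that of the members -0.02. Without fed replicate 1, fed replicate 2 or day 2 replicate 1 the 17 calls at day 2 became 8, 9 and 9.

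At fixed shares the changed members again included CR44168 and CR45185. CR44168 had 7.12 and 8.58 CPM when fed, 5.15 and 11.3 at day 2 and 62.6 and 55.3 at day 5 (log2 fold change 2.91). CR46065, opposite yellow-h, had 25.9 and 25.0, then 26.8 and 29.9, then 56.7 and 48.5. CR42860 had 119 and 125, then 141 and 137, then 73.9 and 72.1, so both day 2 libraries were above the fed ones and both day 5 libraries below. It was called higher at day 2 (adjusted p = 0.0097, lost in 4 of 13 alternatives) and lower at day 5. CR45185 had 101 and 107 when fed, 150 and 156 at day 2 and again 101 and 106 at day 5. CR45139 had 68.4 and 69.6, then 76.2 and 78.9, then 93.6 and 106.

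Within clusters, 604 pairs of a member and a cluster could be tested in the 19 clusters. At day 2, 22 pairs were higher and 24 lower, where 2.12% of all gene and cluster pairs were higher and 3.47% lower. At day 5, 36 were higher and 88 lower, beside 5.18% and 16.0% of all pairs. The calls at day 2 fell on 31 members and 10 clusters, and no member was called in both directions. Those at day 5 fell on 63 members and 14 clusters, and 9 members were called higher in 1 cluster and lower in another. The like counts over all genes were not made, so these counts of members are a description only. With summed CPM the counts were 15 higher and 11 lower at day 2 and 31 higher and 58 lower at day 5. With median-ratio factors they were 13 and 14 at day 2 and 43 and 50 at day 5. Over all 106270 pairs the counts with summed CPM were 2219 higher and 2566 lower at day 2 and 6073 and 10602 at day 5. Median-ratio factors gave 2056 and 2717 of all pairs at day 2 and 8349 and 7589 at day 5.

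Leaving out a fed library changed these counts most. The 46 calls at day 2 became 15 without fed replicate 1, 19 without fed replicate 2, 25 without day 2 replicate 1 and 29 without day 2 replicate 2. The 124 calls at day 5 became 58 and 59 without fed replicate 1 and fed replicate 2. Of the 124, 1 had a log2 fold change of summed UMIs with the opposite sign, CR44029 in follicle cell cluster 4 (difference -0.217, log2 fold change 0.15).

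**Figure D4:**
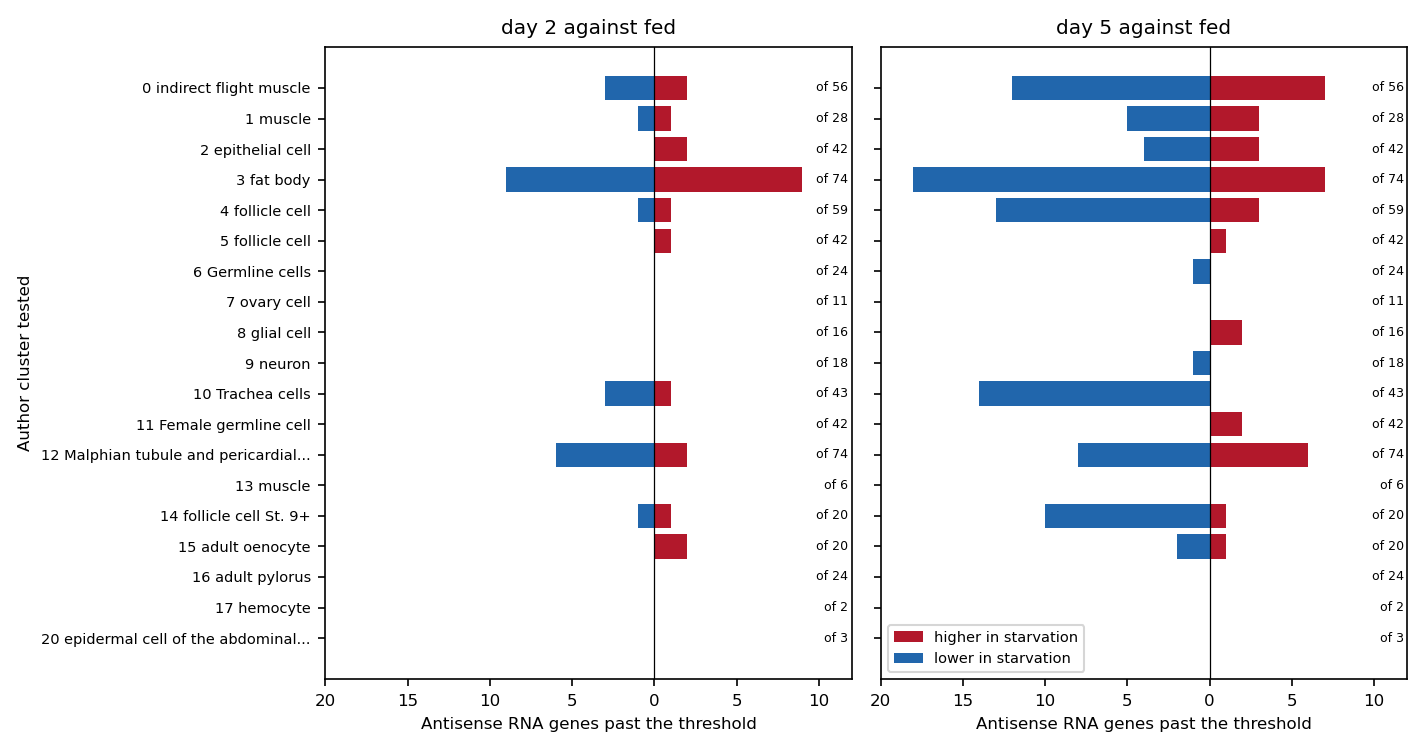
Number of antisense RNA genes called higher (red, to the right) or lower (blue, to the left) than in the fed libraries in each tested cluster at day 2 and day 5 (limma, adjusted p under 0.05), with the number tested beside each bar. At day 5 most calls are in the fat body (7 higher, 18 lower), indirect flight muscle (7 and 12), follicle cell cluster 4 (3 and 13), cluster 12 (6 and 8) and cluster 10 (14 lower).

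In oenocytes 20 members could be tested, in 63 to 111 nuclei per library. At day 2, 2 were higher and 0 lower, where 2.73% of all genes were higher and 4.19% lower. At day 5, 1 was higher and 2 were lower, beside 3.50% and 8.12% of all genes. At an unadjusted p under 0.05 the members counted 5 on each day, and the share of all genes at that limit was not worked out. With summed UMIs under either scaling 1 member was higher and 0 lower at day 2. Of all genes, 2.71% were then higher and 3.56% lower with summed CPM, and 3.28% and 3.36% with median-ratio factors. Without fed replicate 1, fed replicate 2 or day 2 replicate 1 there was likewise 1 call at day 2.

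CR44992, opposite Hnf4, gave the clearest response of oenocytes. It had 167 and 172 CPM in the fed libraries, 454 and 441 at day 2 and 347 and 252 at day 5. Every starved library was above both fed libraries, and the day 5 libraries lay between the fed and the day 2 libraries. The difference was 1.73 ± 0.126 (SE) at day 2 (adjusted p = 3.3e-05, log2 fold change 1.40) and 0.848 ± 0.126 at day 5 (adjusted p = 0.0018, log2 fold change 0.80, limma). It kept its direction and stayed past the threshold in 13 of 13 alternatives on both days, with a highest adjusted p of 0.0017 at day 2 and 0.024 at day 5. Hnf4 itself had 1912 and 1753, then 2207 and 2062, then 1851 and 1945 CPM in the same nuclei, and its differences did not pass the threshold (adjusted p = 0.46 and 0.95).

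CR45889, opposite Diap1, fell in oenocytes at day 5. It had 132 and 130 CPM when fed, 126 and 125 at day 2 and 47.6 and 38.3 at day 5, so only the day 5 libraries stood apart (difference -0.942 ± 0.112 (SE), adjusted p = 0.00043, log2 fold change -1.58, limma). Diap1 fell beside it, from 866 and 966 through 788 and 720 to 370 and 405 CPM (log2 fold change -1.24, adjusted p = 0.0022). The median of all genes in oenocytes at day 5 was -0.16 on the log2 scale, and with median-ratio factors CR45889 was at -1.44.

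The most specific oenocyte member was also lower at day 5. CR44035 had 2233 and 1848 CPM when fed, 2092 and 2231 at day 2 and 1389 and 1394 at day 5, and both day 5 libraries were below all others. The difference at day 5 was -0.588 ± 0.145 (SE) (adjusted p = 0.027, log2 fold change -0.55, limma), and 5 of 13 alternatives lost the call, with an adjusted p of up to 0.16. CG8534 had 90.6 and 116, 146 and 130, and 98.0 and 98.6 CPM, and its difference was -0.039 (adjusted p = 0.92). CR44981, opposite sky, rose from 76.3 and 101 to 177 and 142 at day 2 (adjusted p = 0.021), and 7 of 13 alternatives lost that call. In these nuclei the 8 eggshell genes summed to 2599 and 8354 CPM when fed and to at most 25.7 in the starved libraries.

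In the fat body 74 members were tested in 293 to 730 nuclei per library. At day 2, 9 were higher and 9 lower, where 12.1% of all genes were higher and 8.33% lower. At day 5, 7 were higher and 18 lower, beside 15.5% and 15.9% of all genes. With summed CPM the counts at day 5 were 4 higher and 21 lower, and with median-ratio factors 5 and 18. Of all genes, 14.8% were then higher and 19.7% lower with summed CPM, and 17.2% and 17.3% with median-ratio factors. On both days 9 members were called, 8 of them in the same direction, and the like count over all genes was not made. Without fed replicate 1 or fed replicate 2 the 18 calls at day 2 became 8 and 9 and the 25 at day 5 became 15 and 16.

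The members that fell most in the fat body fell step by step. CR45366 had 65.5 and 63.5 CPM when fed, 17.0 and 19.2 at day 2 and 3.50 and 7.90 at day 5, with no overlap between conditions (day 5 difference -0.897 ± 0.0489 (SE), adjusted p = 1.9e-07, log2 fold change -3.52, limma). Its partner Ent1 fell less, from 125 and 131 through 89.6 and 93.0 to 33.6 and 43.8 (log2 fold change -1.73). CR45601 had 68.2 and 62.8, then 30.5 and 34.1, then 9.79 and 10.1 (log2 fold change -2.67), and Yp1 3902 and 3834, then 1988 and 1975, then 979 and 701 (-2.22). CR45601 lies wholly within Yp1 exons, and both fell together.

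CR46195 fell from 47.4 and 42.8 CPM through 20.2 and 22.4 to 11.2 and 3.59 (log2 fold change -2.74 at day 5), whereas its partner Trf4-1 had 241 and 209, 190 and 214, and 189 and 202, and did not pass the threshold on either day (adjusted p = 0.56 and 0.29). CR45925, opposite the cathepsin inhibitor gene cer, was at 76.1 and 76.8 when fed, at 40.4 and 34.1 at day 2 and at 41.9 and 35.2 at day 5. It was thus lower on both starved days without a further step between them. CR44119, opposite the solute cotransporter gene SLC5A11, was lower at day 5 only, with 38.0 and 35.1, then 43.6 and 35.7, then 13.3 and 15.8, and SLC5A11 fell with it (log2 fold change -3.03 against -1.31).

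Those that rose in the fat body did so on different days. CR45136, opposite CG30015, had 49.8 and 45.3 CPM when fed, 109 and 93.8 at day 2 and 55.2 and 59.6 at day 5, and the rise was called at day 2 (difference 0.622 ± 0.0527 (SE), adjusted p = 1.2e-05, log2 fold change 1.09, limma). CR44321, opposite the aldolase gene Ald1 of glycolysis, likewise had 16.9 and 23.9, then 44.8 and 36.1, then 20.3 and 27.3, and Ald1 rose at day 2 with a log2 fold change of 1.22. For both members the day 5 libraries were back near the fed ones. CR45139, opposite uex, kept rising, with 28.4 and 28.4, then 50.4 and 49.7, then 84.6 and 97.0 (day 5 difference 0.565 ± 0.0484, adjusted p = 6.6e-06, log2 fold change 1.67), and uex rose from 1549 and 1432 to 2556 and 2729 (log2 fold change 0.83). CR45813 and its partner Pcyt1 rose at day 5 with log2 fold changes of 1.03 and 1.33.

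In indirect flight muscle, the most numerous cluster, 56 members were tested in 1035 to 2599 nuclei per library. At day 5, 7 were higher and 12 lower, where 8.68% of all genes were higher and 44.1% lower. With summed CPM 8 were higher and 10 lower, beside 11.1% and 29.3% of all genes. The median UMIs per nucleus here was 1079 and 1047 in the fed libraries and 884 and 874.5 at day 5. The part of this depth in the calls was not tested. The median of all genes was -0.41 on the log2 scale and that of the members -0.15. With median-ratio factors the members' counts were 12 higher and 8 lower, so the majority changed sides with the scaling. That of all genes did too, at 20.1% higher and 15.2% lower. At day 2, 2 members were higher and 3 lower, beside 4.74% and 8.93% of all genes. With summed CPM 1 was higher and 0 lower, beside 4.14% and 4.65%. Median-ratio factors also gave 1 and 0, beside 6.24% and 3.18%.

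CR44168 changed most in flight muscle. It had 25.8 and 33.1 CPM when fed, 18.7 and 45.9 at day 2 and 258 and 225 at day 5, so that fed and day 2 libraries overlapped and day 5 stood far above (difference 0.904 ± 0.0437 (SE), adjusted p = 5.5e-11, log2 fold change 3.03, limma). Its partner CG34423 rose less, from 483 and 567 through 451 and 492 to 1242 and 1146 (log2 fold change 1.19). CR45813 had 86.2 and 89.5, then 95.8 and 96.2, then 224 and 262 (log2 fold change 1.46), and Pcyt1 934 and 953, then 945 and 974, then 2551 and 2597 (1.45). Member and partner thus moved by nearly the same fold. CR46065 rose from 90.8 and 91.3 to 211 and 181 (1.10) beside yellow-h (0.90).

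CR42860 and sls moved in opposite directions in flight muscle. CR42860 had 185 and 187 CPM when fed, 235 and 195 at day 2 and 88.2 and 87.6 at day 5 (day 5 difference -0.274 ± 0.0292 (SE), adjusted p = 1.1e-06, log2 fold change -1.08, limma). The titin gene sls had 21001 and 20684, then 22678 and 21033, then 23052 and 23575, and was called higher at day 5 (adjusted p = 1.2e-05, log2 fold change 0.16). With median-ratio factors its log2 fold change was -0.70, and its fall was called in 13 of 13 alternatives. CR42860 was also called higher at day 2 (adjusted p = 0.014), a call that 6 of 13 alternatives lost. In the female germline cluster 11 it was called higher at day 5. In muscle cluster 1 it had 451 and 473, then 490 and 547, then 260 and 260 (log2 fold change -0.83), beside sls at 30622 and 30357, 28422 and 28156, and 32887 and 31951, which did not pass the threshold at day 5 (adjusted p = 0.10). CR44960 fell in flight muscle from 107 and 99.8 through 78.6 and 82.8 to 36.7 and 37.3 (log2 fold change -1.46), and CG33178 by -1.44.

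**Figure D5:**
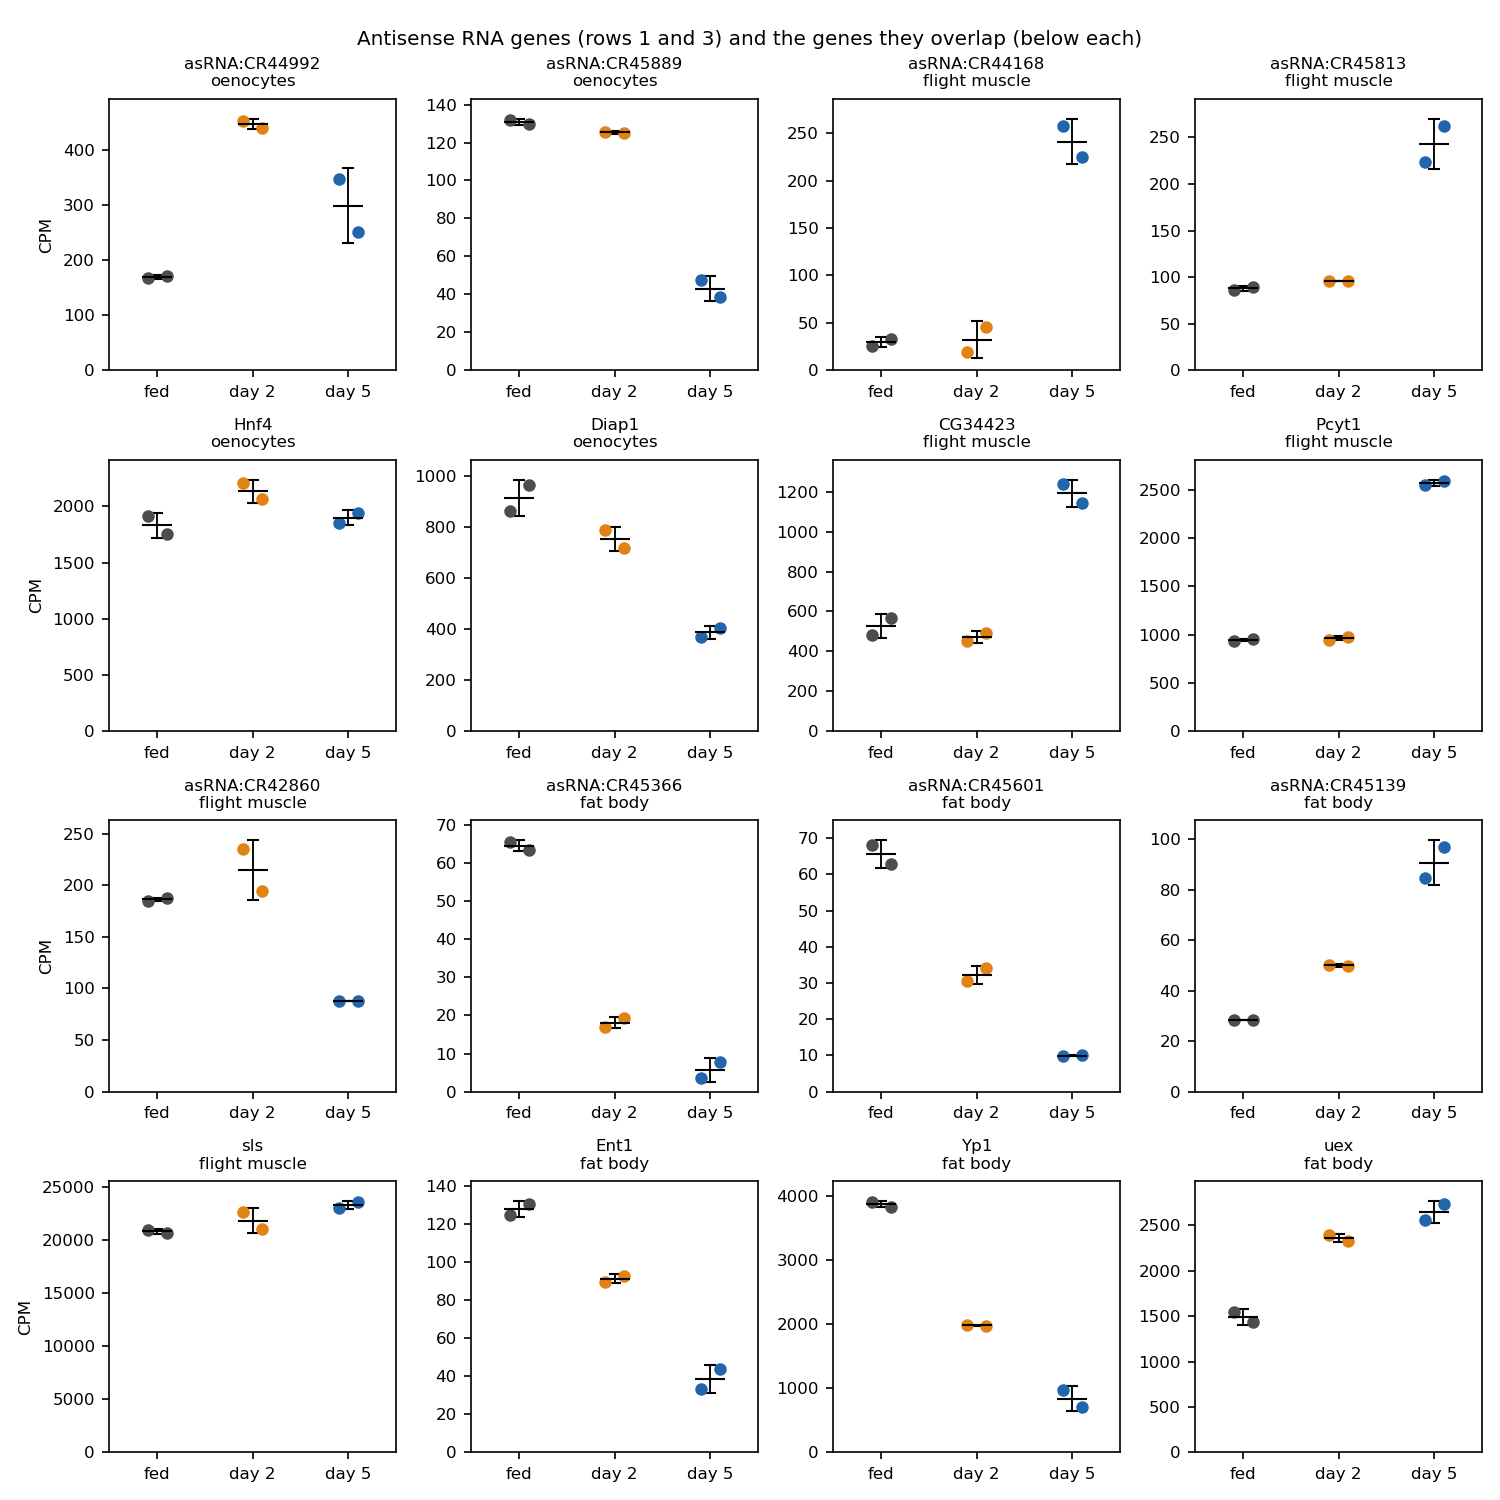
CPM of 8 antisense RNA genes (upper panels) and their partners (lower panels) in oenocytes, indirect flight muscle or fat body, with a dot for each of the 2 libraries per condition and a bar for mean ± SD. CR44992 rises from 167 and 172 to 454 and 441 at day 2 while Hnf4 stays between 1753 and 2207, and CR42860 falls to 88.2 and 87.6 at day 5 while sls stays at 20684 or more.

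In muscle cluster 1, 28 members were tested. Its median UMIs per nucleus was 909.5 and 874 in the fed libraries and 752.5 and 723 at day 5, and the part of this in the calls was not tested. At day 5, 3 were higher and 5 lower, where 6.17% of all genes were higher and 28.9% lower. With summed CPM 4 were higher and 3 lower, beside 8.98% and 16.6% of all genes. Median-ratio factors gave 6 higher and 3 lower, beside 14.5% and 11.4%, so the members' majority changed sides with the scaling. CR44029 had 187 and 192 CPM when fed, 283 and 254 at day 2 and 355 and 364 at day 5, with all conditions apart (day 5 difference 0.237 ± 0.0427 (SE), adjusted p = 0.00017, log2 fold change 0.93, limma), and unc-13 rose from 4126 and 4307 through 5858 and 5364 to 9611 and 10870 (1.28). CR45813 rose from 4.17 and 5.18 through 10.7 and 5.33 to 34.5 and 23.1 (2.53) beside Pcyt1 (2.48). The median of all genes here was -0.23 and that of the tested members 0.29.

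Whether clusters differed in response was tested directly with limma, in a separate model that held both clusters and the library as a block. Between oenocytes and the fat body, 1 of 18 members differed at day 2, where 11.1% of all genes did, and 3 of 18 at day 5, beside 16.5%. Between flight muscle and muscle cluster 1, 1 of 27 differed at day 2, beside 3.19% of all genes, and 5 of 27 at day 5, beside 12.3%. With summed UMIs these counts were 0 and 1, and 0 and 2, and the share of all genes was not worked out. CR44992 rose more in oenocytes than in the fat body on both days with the mean deposited value, and with summed UMIs that difference was 1.67 on the log2 scale at day 2 (adjusted p = 0.057) and 1.09 at day 5 (adjusted p = 0.14) and was not called. CR45139 rose in the fat body at day 5 (0.565) and was at -0.442 in oenocytes, which did not pass the threshold there (adjusted p = 0.066), and the difference between the clusters was called (adjusted p = 0.00043).

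In several other clusters the depth of the nuclei was lower at day 5, and its part in the calls was not tested. The median UMIs per nucleus of cluster 10 was 4387 and 4252 in the fed libraries and 2498.5 and 2465 at day 5, that of follicle cell cluster 4 went from 2320 and 2217 to 1473 and 1524, and that of follicle cells of stage 9 and later from 3697 and 3782.5 to 1983 and 2038.5. In these clusters 0 members were higher and 14 of 43 lower, 3 higher and 13 of 59 lower, and 1 higher and 10 of 20 lower at day 5. With summed CPM the counts were 1 higher and 1 lower, 4 and 3, and 1 and 4. Of all genes tested there, 2.55%, 3.47% and 2.84% were called higher and 24.5%, 42.7% and 26.8% lower with the mean deposited value. With summed CPM 5.18%, 7.08% and 5.79% were called higher and 5.85%, 10.5% and 7.73% lower.

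Some falls in these clusters were large on either scale. CR44095, opposite Cys, a cystatin, had 74.8 and 67.8 CPM in cluster 10 when fed, 26.9 and 32.3 at day 2 and 9.46 and 9.22 at day 5, with no overlap between conditions (day 5 difference -0.974 ± 0.0833 (SE), adjusted p = 6.3e-06, log2 fold change -2.62, limma). Cluster 10 held 76 and 83 nuclei at day 5, so the day 5 values of CR44095 rest on few UMIs. Cys had 133 and 117, 104 and 77.0, and 161 and 92.2, and did not pass the threshold (adjusted p = 0.86). CR43906 in cluster 10 had 305 and 370, then 459 and 419, then 246 and 171, and was called higher at day 2 and lower at day 5, as was CG13377. The member's call at day 2 was lost in 6 of 13 alternatives (adjusted p of up to 0.53). In follicle cell cluster 4, CR45185 rose from 293 and 263 to 569 and 555 at day 2 (difference 0.747 ± 0.0653, adjusted p = 7.3e-06, log2 fold change 1.02) and stood at 374 and 346 at day 5, whereas Cht6 was at 37.8 and 44.2 when fed and 64.5 and 57.5 at day 2 (adjusted p = 0.38). CR45185 was also called higher at day 2 in follicle cell cluster 5 (778 and 828, then 1032 and 1123) and in epithelial cells (170 and 170, then 282 and 262).

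In cluster 12, 2 members were higher and 6 lower of 74 at day 2, beside 2.58% and 7.86% of all genes, and 6 higher and 8 lower at day 5, beside 9.62% and 9.19%. CR44192 had 223 and 200 CPM when fed, 121 and 119 at day 2 and 256 and 327 at day 5, and was called lower at day 2 (adjusted p = 0.0095) and higher at day 5 (adjusted p = 0.0015, limma). Its partner Npc2e had 85.9 and 35.4, then 22.8 and 40.2, then 11.0 and 17.1, and was called lower on both days, so member and partner parted at day 5. CR45133, opposite KCNQ, rose at day 5 from 256 and 277 to 441 and 393 (log2 fold change 0.64), and KCNQ, at 584 and 578 against 609 and 457, did not pass the threshold. CR45275, opposite CG14483, rose from 21.7 and 20.3 through 38.3 and 32.7 to 57.5 and 44.1.

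The remaining tested clusters held few calls at day 5. Epithelial cells had 3 higher and 4 lower of 42, where 6.61% of all genes were higher and 13.0% lower. Glia had 2 higher and 0 lower of 16, beside 1.72% and 12.6%. The female germline cluster 11 had 2 higher and 0 lower of 42, beside 1.59% and 1.38%, and follicle cell cluster 5 had 1 higher and 0 lower of 42, beside 6.34% and 12.2%. Germline cluster 6 had 0 higher and 1 lower of 24, beside 5.03% and 2.77%, and neurons 0 higher and 1 lower of 18, beside 1.06% and 12.7%. No more than 7 members were called in any of these clusters. In the ovary cell, pylorus, hemocyte, epidermal (20) and muscle (13) clusters 0 of 11, 24, 2, 3 and 6 members were called, and with summed UMIs 1 member was lower in muscle cluster 13. Of all genes 0.0738%, 0.339%, 0.978%, 2.92% and 6.23% were higher and 1.11%, 0.952%, 7.06%, 8.95% and 2.21% lower in these clusters. CR46354 rose in glia from 110 and 124 to 210 and 182 (adjusted p = 0.015), CR43916 in cluster 11 from 11.1 and 6.99 to 39.7 and 62.3 (adjusted p = 0.028), and CR44894 fell in cluster 6 from 64.8 and 36.4 to 4.53 and 4.80 (adjusted p = 0.030, limma). At day 5 cluster 11 held 71 and 60 nuclei and cluster 6 held 74 and 75, so the last 2 results rest on few UMIs.

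Some members were called in many clusters at once at day 5. CR44599, opposite loqs, which encodes a partner of Dicer-1, was highest in germline cluster 6, at 220 CPM, and was lower in flight muscle, muscle cluster 1, epithelial cells, fat body and follicle cell cluster 4. Its levels there were low, for example 16.0 and 16.8 CPM when fed and 5.25 and 5.04 at day 5 in flight muscle. Cluster 6 held 555 and 519 nuclei when fed and 74 and 75 at day 5, and the summed eggshell level was lower in the starved libraries of the same 5 clusters; the part of free RNA in these calls was not tested. CR44035, an oenocyte RNA, was lower in flight muscle on 8.74 and 6.42 against 3.15 and 2.01 CPM. Oenocytes held 111 and 73 of 10059 and 10091 nuclei when fed and 66 and 63 of 3776 and 4018 at day 5. CR45601 was lower in flight muscle on 7.98 and 6.06 against 0 and 2.01, where Yp1 fell from 1194 and 1200 to 175 and 181. The part of free RNA in both results was not tested either. CR44894 was lower in 5 of 17 clusters, and CR45139 was higher in 4 of 17, namely epithelial cells, fat body, follicle cell cluster 4 and follicle cells of stage 9 and later. CR44969, opposite CG3164, was lower in 4 of 6, namely epithelial cells, fat body, cluster 12 and follicle cells of stage 9 and later. CR44029 was called in 5 of 19 clusters. It was higher in 2, muscle cluster 1 among them, and lower in 3, follicle cell cluster 4 and cluster 10 among them.

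The share of called members whose partner was called in the same direction varied between comparisons. In flight muscle at day 5, 18 called members had a tested partner, which was called in the same direction for 14, in the other for 1 (CR42860) and not called for 3, in a cluster where 52.8% of all genes were called. In the fat body at day 5 the counts were 11, 1 and 13 of 25, where 31.4% of all genes were called, and at day 2 10, 0 and 8 of 18, beside 20.5%. At fixed cluster shares at day 5 they were 20, 4 and 11 of 35, beside 43.8%, and at day 2 5, 0 and 12 of 17, beside 16.4%. Over all nuclei they were 12, 2 and 15 of 29 at day 2, where 26.4% of all genes were higher and 10.7% lower. At day 5 they were 32, 4 and 8 of 44, beside 13.0% and 47.5%. The shares of all genes count every gene tested, called in either direction. No test was made of these counts, and reads of the members and partners may have been shared.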

How the data were processed

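The snRNA-seq matrix holds 12925 genes by 43027 nuclei of 6 libraries. Per the submitters' processing notes, the authors used Cell Ranger 6.1.1, Seurat and the BDGP6 build, and by the study's methods the libraries were equalised in read depth and aggregated, which lowers the counts of the deeper libraries. The strand setting, the use of introns and the annotation release are not given in the sources used here. The deposited values are natural log values, ln(1 + scaled UMIs), with 10000 UMIs per nucleus in the scaling and a factor per gene, and the authors' cluster annotation was used as deposited. Days were taken from the sample titles, although the library names of day 2 and day 5 carry 5 and 7 in their place. The UMIs were worked back from the values: 99.98% lay within 0.05 of a whole number, and 499 to 24995 UMIs per nucleus were found (median 1231).

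The mean deposited value of each gene was taken per library, or per library and cluster where each library had 20 or more nuclei (19 clusters), and tested with limma 3.58.1 (trend) in R 4.3.3 over all genes with at least 10 nonzero nuclei in at least 2 libraries. Adjusted p-values are Benjamini-Hochberg values over all genes tested, with a threshold of 0.05. Log2 fold changes came from CPM of summed UMIs with 0.5 added to each sum and 1 to each total. Tables were made with Python 3.11.15, numpy 2.4.6, pandas 2.3.3, scipy 1.17.1 and matplotlib 3.10.9, and the code was tested on simulated data. Positions and overlaps came from the Ensembl annotation of BDGP6.54, which named 12376 of the 12925 genes.

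The genes named were the 10 members with most UMIs, the 10 with the highest tau, up to 5 in each direction over all nuclei and at fixed shares and up to 2 in each direction per cluster by smallest adjusted p with starved and fed libraries apart, the 3 on each side of the limit, CR44992, and each one's partner. CR43767, CR44019, CR44368, CR44690, CR44891, CR44892, CR45126 and CR45822 lie outside this rule and were named after their values were seen. The partner and profile of 1 member are not reported here. The members and lists were chosen with earlier results of these data known. Alternatives were no filter, a filter on UMIs, summed UMIs under 2 scalings, a fit to just the 4 libraries of a comparison, the replicate number as block, each library omitted in turn, and nuclei without the tenth with most UMIs or without ovary clusters. No doublets were removed here. Counting intervals are not given, since UMIs are summed over nuclei and the spread between libraries is used.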

Additional observations from a re-analysis of the deposited data

Results flagged for a closer look

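The responses of 10 pairs of a member and a day differed between 2 clusters by the test of the difference itself (limma, library as a block, Benjamini-Hochberg over all genes tested; values on the natural log scale). Between oenocytes and the fat body, CR44992 differed by 1.73 ± 0.110 (SE) at day 2 (adjusted p = 5.3e-06) and by 0.861 at day 5 (adjusted p = 0.00023), higher in oenocytes. CR45889 differed by -0.718 (adjusted p = 0.0021) and CR45139 by -1.01 (adjusted p = 0.00043) at day 5, both lower in oenocytes. CR45889 was also lower in the fat body, and CR45139 rose there.

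Between indirect flight muscle and muscle cluster 1, CR44029 differed by -0.181 at day 2 (adjusted p = 0.018) and by -0.255 at day 5 (adjusted p = 0.00013), with its rise in muscle cluster 1. At day 5 CR45813 differed by 0.448 (adjusted p = 7.3e-08) and CR46065 by 0.352 (adjusted p = 1.6e-06), both higher in flight muscle. CR44960 differed by -0.343 (adjusted p = 2.3e-07), with its fall in flight muscle. CR42860 fell in both clusters and differed by 0.264 (adjusted p = 0.0018). For CR45813 and CR42860 the log2 folds from summed UMIs had the opposite order: CR45813 had 1.46 in flight muscle and 2.53 in muscle cluster 1, and CR42860 had -1.08 and -0.83. The fed level of these members also differed between the clusters, and its part in the differences was not tested. With summed UMIs, an alternative chosen after seeing the data, 0 and 1 members differed between oenocytes and fat body at day 2 and day 5, and 0 and 2 between the muscle clusters. The share of all genes under this alternative was not worked out. The calls left with summed UMIs were CR45139, CR44960 and CR44029, all at day 5. CR44992 then had a difference of 1.67 on the log2 scale at day 2 (adjusted p = 0.057) and 1.09 at day 5 (adjusted p = 0.14). Both days share the fed libraries.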

How the results depend on the processing

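Several counts of members past the threshold moved by more than 1.5 times. With CPM of summed UMIs in place of the mean deposited value, the count at fixed cluster shares at day 2 fell from 17 to 7 (7 with median-ratio scaling), that over cluster and member pairs at day 2 from 46 to 26 (27 with median-ratio scaling) and that in oenocytes at day 2 from 2 to 1 (1 with median-ratio scaling). With no filter on low values, the pairs fell from 46 to 24 at day 2 and from 124 to 80 at day 5, and oenocytes at day 2 from 2 to 1. With summed UMIs, chosen after seeing the data, the members whose response differed between oenocytes and the fat body went from 1 to 0 at day 2 and from 3 to 1 at day 5, and between the muscle clusters from 1 to 0 and from 5 to 2.

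Leaving out 1 library at a time, the count over all nuclei ran from 14 to 32 at day 2, from 36 to 48 at day 5 and from 39 to 49 between day 5 and day 2. At fixed shares it ran from 8 to 23 at day 2 and from 25 to 40 at day 5, and over cluster pairs from 15 to 64 and from 58 to 134. In oenocytes it ran from 1 to 2 and from 2 to 3, and in the fat body from 8 to 22 and from 15 to 22. The difference between oenocytes and the fat body ran from 1 to 2 and from 3 to 4, and that between the muscle clusters from 0 to 3 and from 4 to 5. 

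Among the named results over all nuclei, the log2 fold changed sign under another scaling in 10 comparisons of 8 members. CR43460 at day 2 came to -0.067 with CPM of summed UMIs and -0.20 with median-ratio scaling, and CR45189 at day 5 to 0.091 and 0.21. With median-ratio scaling alone, CR43906 came to -0.071 and CR44029 to -0.024 at day 2, and CR45481 to 0.044 at day 5. Between day 5 and day 2 that scaling gave 0.11 for CR44321, 0.16 for CR45189, 0.10 for CR46471, 0.19 for CR45129 and 0.21 for CR45481. The cause was not tested. Of the 228 named results past the threshold, 112 kept direction and side in every alternative run and 116 lost the call in at least 1. 

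The replicate numbers do not pair the libraries: deviations of libraries with the same number correlated at -0.057 to 0.061. With replicate number as a block, the counts were 30, 48 and 52 over all nuclei (day 2, day 5, day 5 against day 2), 16 and 35 at fixed shares, 49 and 121 over cluster pairs, 3 and 2 in oenocytes and 17 and 24 in the fat body. The number of nuclei with a value set how many members could be tested: in oenocytes 20 of the 90 and in hemocytes 2 had enough such nuclei.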
